A study of Mus musculus with 162 samples.

Results

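Atf3, Sox11, Gap43, Gal, Csf1, Ecel1, Flrt3, Gadd45a, Stmn4 and Cacna2d1 are 10 genes that sensory neurons are known to switch on when their axons are cut. They were chosen by name, and all 10 were found by Ensembl identifier among the 46078 genes of the count files. Their levels were measured by bulk RNA sequencing in 56 trigeminal ganglion (TG) libraries and 27 spinal cord (SC) libraries from mice treated on the skin with MC903, and in 6 libraries of ethanol-treated skin used for levels alone, of 162 libraries in the series. MC903 (calcipotriol) is a vitamin D analogue that causes atopic dermatitis-like inflammation and itch. The question here was whether the neurons that serve the inflamed skin, and the cord they project to, turned on an injury program.

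The trigeminal ganglion holds the cell bodies of the sensory neurons of the face. All mice were adult male C57BL/6, and every treated group received 0.2 mM MC903 daily, against daily ethanol as vehicle. Uninjected wild-type TG was taken on day 1 (4 ethanol and 4 MC903 libraries), day 2 (2 and 3), day 5 (3 and 3) and day 8 (5 and 5). The study's methods place the day 1 samples hours after the first application, and state that the ganglion came from the side of the treated cheek. At day 8 the library titles followed 2 naming styles, which were fitted as cohort A (2 and 2) and cohort B (3 and 3). Other wild-type mice were injected with PBS (3 and 4) or with 250 µg of anti-Gr1 (4 and 4), an antibody that depletes neutrophils, and were taken at day 8. TSLPR KO mice, which lack the Crlf2 subunit of the receptor for the epithelial cytokine TSLP, were uninjected and were taken at day 8 (2 and 2) and day 12 (4 and 4). Spinal cord came from day 8 mice that were uninjected (5 and 4), PBS-injected (2 and 2) or anti-Gr1-injected (6 and 8), and was thoracic cord of mice treated on the back. The labels do not state whether replicates were separate mice, so p-values measure the spread between these libraries.

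An axon that is cut changes what its cell body transcribes. Early transcription factors such as ATF3 and SOX11 come first, followed by growth cone proteins, neuropeptides and secreted signals that reach neighbouring glia and spinal microglia, while several genes of the resting nociceptor are turned down. Galanin and GAP-43 are classical markers of this state, ATF3 is nearly absent from intact sensory neurons, and neuronal CSF1 is known to act on spinal microglia after nerve injury. The α2δ1 subunit encoded by Cacna2d1 carries calcium channels to the presynaptic terminal and is the binding site of gabapentin. 

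ATF3 belongs to the bZIP family, whose members bind the cyclic AMP response element (CRE) and AP-1 sites, so the promoters were searched on both strands for the CRE TGACGTCA, its core TGACG, which lies within the CRE, and the AP-1 site TGANTCA. RefSeq promoter sequences of build GRCm38.p6, from 250 bases before to 50 bases after the annotated start, were matched for 8 of the 10 genes and were not matched for Gap43 and Stmn4. None of the 8 held the full CRE, found in 1.79% of all 32851 promoters, or the AP-1 site, found in 7.81%. The CRE core was present in 3 of the 8, those of Atf3, Cacna2d1 and Gal, and in 20.8% of all promoters. The sequences that hold the core are shown 5′ to 3′ on the gene's own strand. Cacna2d1 passed the test of MC903 against ethanol in both injected TG sets, and Gal in the day 12 set and in anti-Gr1 cord. Atf3 had the largest change of the 10 genes in uninjected spinal cord. Sox11, Csf1 and Gadd45a also passed in some comparisons, and their windows lacked the core. Stmn4 passed in uninjected and anti-Gr1 cord and had no matched window, so calls and motifs can be set side by side only in part. Capitals mark the core, in either orientation. The windows were chr5:15934441-15934740 (plus strand) for Cacna2d1, chr19:3414495-3414794 (minus strand) for Gal and chr1:191183284-191183583 (minus strand) for Atf3.
Cacna2d1: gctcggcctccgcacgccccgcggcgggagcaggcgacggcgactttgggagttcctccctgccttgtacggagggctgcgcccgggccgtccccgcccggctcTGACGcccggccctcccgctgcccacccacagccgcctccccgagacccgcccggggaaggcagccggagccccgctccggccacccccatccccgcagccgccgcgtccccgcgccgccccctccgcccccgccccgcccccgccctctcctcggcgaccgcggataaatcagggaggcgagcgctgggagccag
Gal: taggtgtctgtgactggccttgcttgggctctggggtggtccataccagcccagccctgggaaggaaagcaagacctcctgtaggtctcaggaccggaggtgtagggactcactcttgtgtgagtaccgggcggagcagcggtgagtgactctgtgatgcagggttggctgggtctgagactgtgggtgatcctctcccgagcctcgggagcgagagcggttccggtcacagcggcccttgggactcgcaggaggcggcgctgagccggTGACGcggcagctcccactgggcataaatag
Atf3: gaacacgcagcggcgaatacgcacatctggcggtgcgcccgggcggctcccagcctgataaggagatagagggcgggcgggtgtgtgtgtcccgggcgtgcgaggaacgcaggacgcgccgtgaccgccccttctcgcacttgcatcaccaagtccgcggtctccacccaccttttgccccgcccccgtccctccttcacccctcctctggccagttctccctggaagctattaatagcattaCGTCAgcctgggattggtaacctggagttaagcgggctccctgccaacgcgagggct
The first base of the core lay at position -146 from the start of Cacna2d1, at 20 inside the transcript of Gal, and at -7 in Atf3. A match describes the letters only, and the windows of the other genes lacked these letters and no more.

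Library depth ranged from 15931871 to 62105901 counts on genes in TG and from 21595429 to 50591655 in SC, and levels are given in cpm, a gene's count scaled to a common library total. Markers fixed as lists showed that TG libraries were not equally pure. At day 1, MC903 replicates 1 and 2 held 1812 and 2071 cpm summed over 5 oligodendrocyte markers, a cell of the central nervous system, against 24.2 to 510 cpm in the other 6 libraries of that day. The ethanol replicate 1 of day 1 and ethanol replicates 2 and 3 of day 5 held 4270, 11286 and 5969 cpm of 5 pituitary hormone genes. Crlf2, the gene targeted in the knockout, had 0 to 7 counts in the 4 TSLPR KO libraries of day 8 and 38 to 81 counts (0.907 to 2.06 cpm) in the 8 libraries labelled TSLPR KO of day 12. Wild-type TG libraries had 1.15 to 7.58 cpm of Crlf2, except cohort B ethanol replicate 2 of day 8, with 4 counts (0.117 cpm). The day 12 group and that wild-type library thus go against their labels for this gene. The labels do not say which part of Crlf2 was removed. Values without the wild-type library are given beside the main results of day 8 that include it, and the day 12 group is named by its label.

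**Figure D1:**
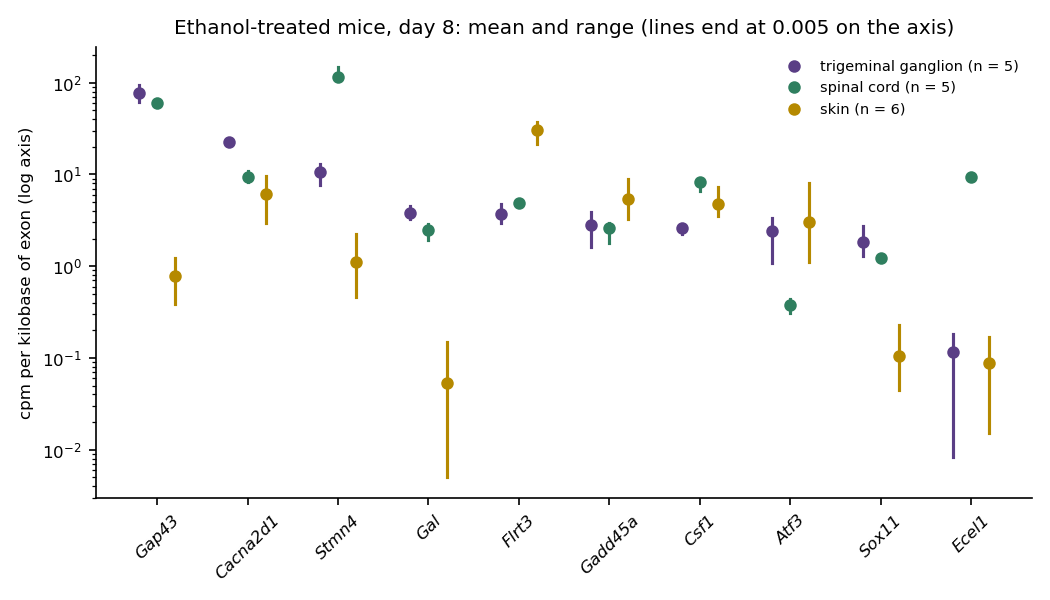
Levels of the 10 genes per kilobase of exon in ethanol-treated mice at day 8, in trigeminal ganglion (n = 5), spinal cord (n = 5) and skin (n = 6), on a log axis in cpm per kb. Points are means and lines the range of the libraries, with lines ended at 0.005 where a library had 0 counts, and Stmn4 and Ecel1 stand far higher in spinal cord than in trigeminal ganglion.

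Levels were compared between genes per kilobase of exon, in uninjected ethanol-treated mice at day 8. In TG, Gap43, the growth cone phosphoprotein, stood highest at 76.7 ± 13.2 cpm per kb (SD, n = 5), followed by Cacna2d1 at 22.5 ± 1.25 and Stmn4, a stathmin family microtubule regulator, at 10.7 ± 2.12. The next 6 genes, in the order Gal, Flrt3, Gadd45a, Csf1, Atf3 and Sox11, lay between 3.799 and 1.85 cpm per kb, and each had a range that overlapped that of its neighbour in the order. Ecel1, a neuronal endopeptidase, was lowest at 0.115 ± 0.0802. The order of the 10 genes was the same without the library with 4 Crlf2 counts. In SC the order changed, with Stmn4 first at 114.8 ± 17.99 cpm per kb and Atf3 last at 0.377 ± 0.0626. In skin Flrt3 led with 30.5 ± 6.23 cpm per kb (SD, n = 6) and Gal had a mean of 0.0531, with 0 counts in 2 of the 6 libraries.

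TG and SC of these ethanol-treated mice differed in 9 of the 10 genes, all but Gadd45a (edgeR quasi-likelihood test, adjusted p under 0.05, the threshold used for SC). Of 25788 genes tested, 39.2% passed in the same comparison. Atf3 was 2.70 ± 0.31 higher in TG on the log2 scale (SE, adjusted p = 7.2e-06) and Cacna2d1 1.28 ± 0.11 higher (adjusted p = 3.1e-07). Ecel1 was lower in TG by -6.34 ± 0.37 (adjusted p = 6.7e-09), Stmn4 by -3.42 ± 0.17 (adjusted p = 1.5e-09) and Csf1 by -1.65 ± 0.11 (adjusted p = 1.7e-08). The remaining calls were smaller, at 0.62 for Sox11, 0.37 for Gap43, 0.63 for Gal and -0.37 for Flrt3. They also depended on single libraries, since of the 10 fits that each lacked a library the calls held in 9 for Sox11, 4 for Gap43, 3 for Gal and 4 for Flrt3, and RLE scaling (adjusted p = 0.054) and no filter (adjusted p = 0.11) ended the call of Gal. No filter also ended that of Gap43 (adjusted p = 0.078). Leaving out the wild-type library with 4 Crlf2 counts ended the calls of Gap43 (0.33, adjusted p = 0.057) and Flrt3 (-0.30, adjusted p = 0.066). Most of the nociceptor list was higher in TG, with 9 of 10 genes up and 1 down, at a median of 7.27. Trpv1 at 8.80 ± 0.25 and Scn10a at 12.47 ± 0.41 were among the genes up. Motor neuron markers summed to 154 to 307 cpm in SC and 0.502 to 3.41 cpm in TG. The tissues came from differently treated skin sites, so tissue and skin site cannot be told apart. In bulk tissue, fewer cells of a type and less RNA per cell cannot be told apart either.

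**Figure D2:**
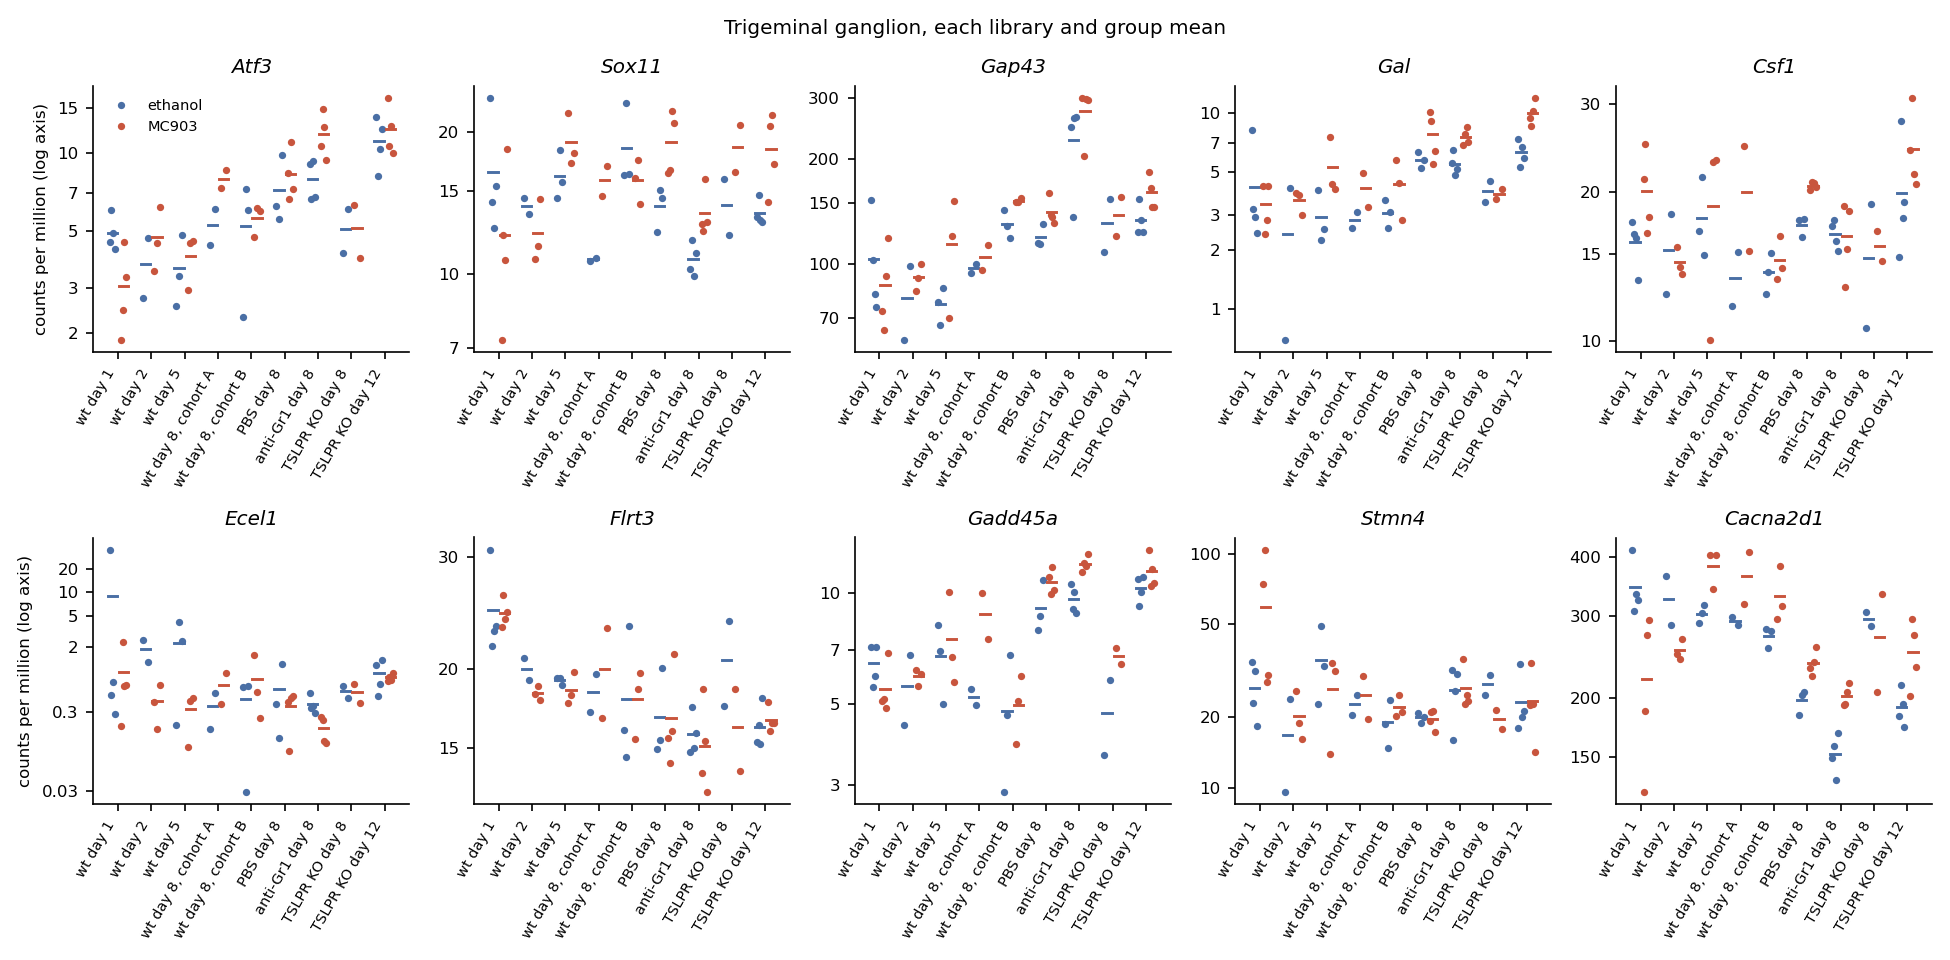
Level (cpm) of each gene in every trigeminal ganglion library (points) with the group mean (bars), ethanol in blue and MC903 in red, on log axes that differ between panels. The mean of Cacna2d1 in MC903 lies above ethanol from day 5 on in the wild-type sets, without overlap on day 5, with PBS and with anti-Gr1, while Ecel1 and Stmn4 have their extremes in a few libraries of days 1 and 5.

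In wild-type uninjected TG, none of the 10 genes passed the threshold of adjusted p under 0.1 on any day. Atf3 on day 1 was at 4.25 to 5.99 cpm in ethanol and at 1.88, 2.45, 4.50 and 3.31 cpm in MC903, with the 2 lowest values in the oligodendrocyte-rich libraries. MC903 minus ethanol came to -0.74 ± 0.30 (SE) on the log2 scale, with an adjusted p = 0.57. The background call rate was 0% on day 1 (25319 genes tested, 2034 at an unadjusted p under 0.05 and 77 called by DESeq2) and 0% on day 2 (24092 tested, 1527 and 63). It was 0.00823% on day 5 (24300 tested, 938 at an unadjusted p under 0.05) and 0.16% on day 8 (25600 tested, 1787). These comparisons thus called almost no gene at all. At an unadjusted p under 0.05 the 10 genes gave 3 on day 1, 2 on day 2, 4 on day 5 and 3 on day 8, and DESeq2 called 0 of them on each day.

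Cacna2d1 was the member that separated the libraries on most days, in opposite directions. On day 2 it was 364 and 287 cpm in ethanol against 249, 242 and 268 in MC903, so every MC903 library lay below. On day 5 it was 289, 304 and 316 cpm in ethanol against 403, 341 and 404, so every MC903 library lay above. The fitted changes were -0.38 ± 0.16 on day 2 (adjusted p = 0.73) and 0.38 ± 0.15 on day 5 (adjusted p = 1). A test of the difference between these days, added after the values were seen, gave 0.73 ± 0.22, with an unadjusted p of 0.004 and an adjusted p of 1 by edgeR. Day 5 minus day 1 was 1.05 ± 0.35 (adjusted p = 0.7), and the day 1 MC903 libraries at 126.6 and 188 cpm were the oligodendrocyte-rich ones, against 273 and 294 in the other 2. None of the 10 genes passed in either test of days, where the background was 0% (1910 and 1018 genes at an unadjusted p under 0.05, 46 and 14 called by DESeq2).

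On day 8 uninjected, Cacna2d1 was 256 to 299 cpm in ethanol and 295 to 411 in MC903, and the ranges met at a single pair of libraries. Its change was 0.30 ± 0.09 (adjusted p = 0.50), with 0.32 ± 0.15 for cohort A alone and 0.28 ± 0.10 for cohort B alone. Gal, the neuropeptide galanin, was 2.57 to 3.59 cpm in ethanol and 2.85 to 5.74 in MC903, at 0.50 ± 0.23 (adjusted p = 0.71). All 10 genes had a positive fold change at day 8, with a median of 0.28 against 0.01 over all genes tested. Sox11 differed in sign between the cohorts (0.56 ± 0.17 for A and -0.24 ± 0.19 for B, neither past the threshold), and stood at 23.04 cpm in the wild-type library with 4 Crlf2 counts. Without that library the changes were 0.23 for Sox11, 0.28 for Cacna2d1 and 0.44 for Gal, and Flrt3 stood at -0.02, which left 9 of the 10 genes positive.

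Several values of days 1 and 5 moved with marker-rich libraries, those of Stmn4 and Ecel1 most plainly. On day 1, Atf3 and Cacna2d1 were lowest in the oligodendrocyte-rich MC903 libraries. Gal on day 1 was 8.19 cpm in the pituitary-rich ethanol library and 2.44 to 3.21 in the other ethanol libraries. Stmn4 on day 1 was 74.05 and 104 cpm in the oligodendrocyte-rich MC903 libraries, 28.4 and 30.2 in the other MC903 libraries, and 18.3 to 34.3 in ethanol. Its day 1 change was 1.07 ± 0.40 (adjusted p = 0.57), and 0.48 ± 0.14 (adjusted p = 1) without the libraries rich in oligodendrocyte or pituitary markers, which left 4 of 8. The limits for that fit were 500 cpm of the oligodendrocyte markers and 1000 cpm of the pituitary markers. Ecel1 on day 1 was 34.8 cpm in the pituitary-rich ethanol library and 0.287 to 0.722 in the other 3. Its day 1 change was -3.21 ± 1.46 with that library and 0.90 ± 0.77 without it, a turn in direction with neither value past the threshold. On day 5 the pituitary-rich ethanol libraries had 4.15 and 2.41 cpm of Ecel1 and the remaining ethanol library 0.208. The part these other tissues played in the values was not tested.

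**Figure D3:**
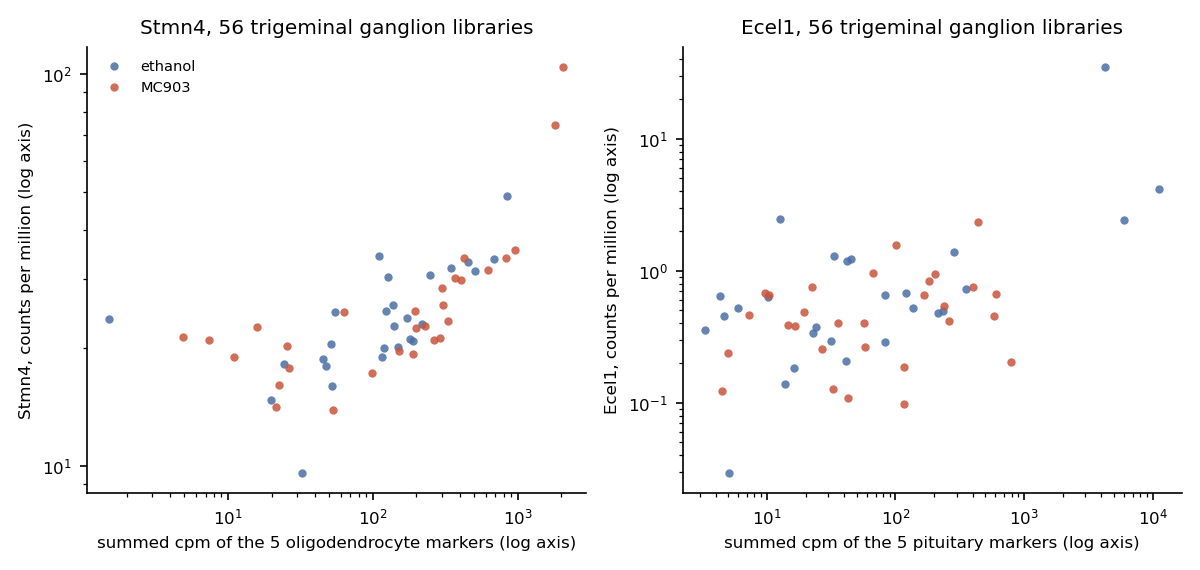
Left, Stmn4 against the sum of 5 oligodendrocyte markers, and right, Ecel1 against the sum of 5 pituitary markers, each in cpm on log axes, with 1 point for each of the 56 trigeminal ganglion libraries (ethanol blue, MC903 red). The 2 libraries highest in Stmn4, at 74.05 and 104 cpm, are the 2 with the most oligodendrocyte markers, at 1812 and 2071 cpm, and the library with 34.8 cpm of Ecel1 is among the 3 richest in pituitary markers.

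The ranges of the MC903 and ethanol arms were separate for 1 of the 10 genes on day 1 (5.55% of all genes tested), 3 on day 2 (22.8%) and 2 on day 5 (8.70%). The 3 of day 2 were Ecel1, Flrt3 and Cacna2d1, all lower with MC903. Flrt3, an adhesion molecule that binds Unc5 receptors, was 20.8 and 19.2 cpm against 18.3, 18.8 and 17.9, a difference of -0.14 ± 0.17 (adjusted p = 0.83). Day 2 rested on 2 ethanol libraries that differed in Gal, at 0.692 and 4.13 cpm, where Gal had a change of 0.57 ± 0.55 (adjusted p = 0.79). Without ethanol replicate 2 the test called 5 of the 10 genes, with Gal at 2.30 ± 0.41 (adjusted p = 0.0081) and Cacna2d1 at -0.57 ± 0.12 (adjusted p = 0.014). Without ethanol replicate 1 these were -0.19 and -0.15. The arms of day 2 were also separate in marker sums, with myelinating Schwann cell markers at 7717 to 10313 cpm in ethanol and 11197 to 13528 in MC903, sensory neuron markers at 5978 to 8659 and 8693 to 10343, and endothelial markers at 71.3 to 84.4 and 89.4 to 96.3. Red blood cell markers were higher too, at 409 to 487 and 595 to 1337 cpm, and skeletal muscle, motor neuron and keratinocyte markers were lower. The part of these shifts in the values of day 2 was not tested. The 2 of day 5 were Gal and Cacna2d1, both higher. Gal on day 5 was 4.04, 2.24 and 2.56 cpm in ethanol and 7.48, 4.34 and 4.08 in MC903, at 0.88 ± 0.36 (adjusted p = 1). Same-numbered libraries of day 5 were taken as pairs because their counts correlated, and the labels do not state pairing. The fit with the pair as a block also called none of the 10 genes, with 54 calls over all genes against 2 without it.

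In the PBS-injected mice, 3 of the 10 genes rose and none fell, against 3.36% of 23708 genes called in either direction. They were Cacna2d1, Sox11 and Csf1. Cacna2d1 was 185, 204 and 206 cpm in ethanol and 233, 223, 239 and 257 in MC903, with no overlap. It rose by 0.26 ± 0.06 on the log2 scale (SE, adjusted p = 0.044). Sox11, a transcription factor of embryonic and regenerating neurons, was 12.3, 15.04 and 14.5 cpm in ethanol and 16.4, 16.7, 22.1 and 20.9 in MC903. It rose by 0.43 ± 0.12 (adjusted p = 0.095), again with no overlap. Csf1, the macrophage colony stimulating factor, was 17.6, 16.2 and 17.6 cpm in ethanol and 20.1, 20.9, 20.8 and 20.5 in MC903, and rose by 0.26 ± 0.07 (adjusted p = 0.092). 

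These calls lay near the threshold. Leaving out each of the 7 libraries in turn kept Cacna2d1 in 3, Sox11 in 3 and Csf1 in 1 of the 7 fits, with changes of 0.20 to 0.29, 0.35 to 0.49 and 0.22 to 0.28. RLE scaling ended the call of Sox11 (adjusted p = 0.10), and DESeq2 (adjusted p = 0.11) and no filter (adjusted p = 0.10) that of Csf1. Gap43 was 114.7, 114.4 and 130 cpm against 159, 138, 136 and 130.9, with no overlap, at 0.23 ± 0.07 (adjusted p = 0.13). Counting it, 4 of the 10 genes did not overlap, all higher with MC903, against 13.4% of all genes. Atf3 was 6.21, 5.53 and 9.84 cpm against 8.33, 6.60, 11.1 and 7.28, at 0.19 ± 0.20 (adjusted p = 0.72). The median over the 10 genes was 0.23, against 0.00 over all genes. Summed sensory neuron markers were 14946 to 15066 cpm in ethanol and 14665 to 14764 in MC903, satellite glia markers 869 to 917 and 954 to 1045, and fibroblast markers 987 to 996 and 733 to 862. Their part in the calls was not tested.

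In anti-Gr1-injected mice, only Cacna2d1 of the 10 genes passed, against 1.88% of 24233 genes. It was 149, 158, 134 and 168 cpm in ethanol and 194, 194, 206 and 215 in MC903. The rise was 0.42 ± 0.09 (SE, adjusted p = 0.048), and it stayed past the threshold in 4 of the 8 fits that left out a library, at 0.36 to 0.49. Several other genes separated the libraries without passing. Atf3 was 9.10, 6.64, 9.27 and 6.73 cpm in ethanol and 10.6, 14.9, 12.6 and 9.41 in MC903, at 0.60 ± 0.17 (adjusted p = 0.12). Gal was 5.57, 6.50, 4.79 and 5.18 cpm against 6.85, 7.81, 8.51 and 7.10, at 0.47 ± 0.14 (adjusted p = 0.15). Altogether 6 of the 10 genes did not overlap, 5 higher (Atf3, Sox11, Gal, Gadd45a and Cacna2d1) and Ecel1 lower, against 8.06% of all genes. 

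Gap43 in these mice, ethanol replicate 2 aside, stood above every library of the other TG groups, which reached 184 cpm. It was 248, 136, 262 and 264 cpm in ethanol and 299, 204, 298 and 296 in MC903, and replicate 2 was the lowest of each arm. The MC903 change was 0.28 ± 0.19 (adjusted p = 0.56). Sensory neuron markers summed to 14882 to 20790 cpm in the ethanol libraries of this set, with the lowest in replicate 2, and to 19297 cpm in MC903 replicate 2, the highest of its arm, against 7661 to 10582 cpm in uninjected ethanol libraries of day 8. The PBS ethanol libraries held 14946 to 15066 cpm of these markers, and their Gap43 was among the other groups' levels of at most 184 cpm. Fibroblast markers were 1032 to 1487 cpm in ethanol and 667 to 1026 in MC903, and their part in these values was not tested. Mean levels in ethanol also differed between sets for other genes: Cacna2d1 was 280 cpm uninjected, 198 with PBS and 153 with anti-Gr1, and Gadd45a, a stress-induced growth arrest gene, was 4.95, 9.12 and 9.62. Injection and the set of libraries cannot be told apart for such levels.

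Of the 10 genes, none differed in its MC903 response between anti-Gr1 and uninjected mice, where 0% of 27015 genes were called (1710 at an unadjusted p under 0.05, 3 by DESeq2). Against PBS none differed either, with 0.0349% of 25760 genes called. The difference for Cacna2d1 was 0.13 ± 0.13 against uninjected and 0.18 ± 0.12 against PBS, with 95% intervals of -0.12 to 0.39 and -0.05 to 0.41. The intervals leave room for responses that differ by up to that much. The uninjected set includes the library with 4 Crlf2 counts, and without it the difference for Cacna2d1 was 0.15 ± 0.14 and again none of the 10 genes passed.

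In TSLPR KO mice of day 8, none of the 10 genes passed, and 0% of 23402 genes did (1886 at an unadjusted p under 0.05, 194 by DESeq2). With 2 libraries in each arm, 39.7% of all genes did not overlap, and 3 of the 10 genes did not. Cacna2d1 was 305 and 286 cpm in ethanol and 206 and 334 in MC903, where the lower value came from the library with 13.19% of its reads in ambiguous features. Gal was 3.49 and 4.49 cpm in ethanol and 3.65 and 4.07 in MC903. The arms were also separate in marker sums, with sensory neuron markers at 8780 to 14329 cpm in ethanol and 7786 to 8717 in MC903. Keratinocyte markers were at 2.50 to 4.43 and 5.87 to 133.6 cpm. Skeletal muscle and red blood cell markers were higher too, and fibroblast, endothelial, astrocyte and oligodendrocyte markers were lower. The part of these shifts in the values of this set was not tested. The MC903 response of the 10 genes did not pass as different from wild type, where 0% of 26576 genes were called (2234 at an unadjusted p under 0.05, 164 by DESeq2). The difference was -0.48 ± 0.42 for Gal and -0.38 ± 0.20 for Cacna2d1. The wild-type set of this test includes the library with 4 Crlf2 counts, a level of the knockout libraries, and without it the differences were -0.42 ± 0.41 and -0.35 ± 0.20. For Cacna2d1 the difference was -0.13 without TSLPR KO MC903 replicate 1 and -0.66 without TSLPR KO MC903 replicate 2, neither past the threshold.

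Galanin rose in the day 12 libraries labelled TSLPR KO. Gal was 7.33, 5.30, 6.66 and 5.90 cpm in ethanol and 9.36, 8.60, 10.2 and 11.9 in MC903, so the lowest MC903 library exceeded the highest ethanol one. The rise was 0.69 ± 0.13 (SE, adjusted p = 0.081), the only call among the 10 genes, against 0.304% of 25969 genes. Same-numbered libraries were taken as pairs from the counts, where they correlated at 0.21 to 0.61, against -0.5 to 0.33 for other pairs. The labels do not state pairing, so the block was a choice made from these data. With the pair as a block Gal rose by 0.70 ± 0.11 (adjusted p = 0.022), Cacna2d1 by 0.40 ± 0.06 (adjusted p = 0.02) and Sox11 by 0.46 ± 0.10 (adjusted p = 0.074). Over all genes the block called 356, against 79 without it.

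Without the block, Cacna2d1 was 184, 214, 195 and 174 cpm against 202, 295, 272 and 233, with overlap. Sox11 was 13.2, 14.7, 13.03 and 12.9 cpm against 14.2, 20.6, 21.7 and 17.1. Gal was the sole gene of the 10 whose arms did not overlap, against 5.09% of all genes. Leaving out single libraries gave 0.62 to 0.77 for Gal and kept its call in 2 of 8 fits. Without the replicate 2 libraries, which held 685 and 836 cpm of oligodendrocyte markers, the change was 0.68 ± 0.14 (adjusted p = 0.23). Atf3 stood at 8.14 to 13.7 cpm in ethanol, above the uninjected wild-type range of 2.32 to 7.27 at day 8, and at 9.97 to 16.3 in MC903. Some ethanol libraries of the PBS and anti-Gr1 sets also lay within the ethanol range of this group. Day, genotype and set of libraries cannot be told apart for the level of Atf3.

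**Figure D4:**
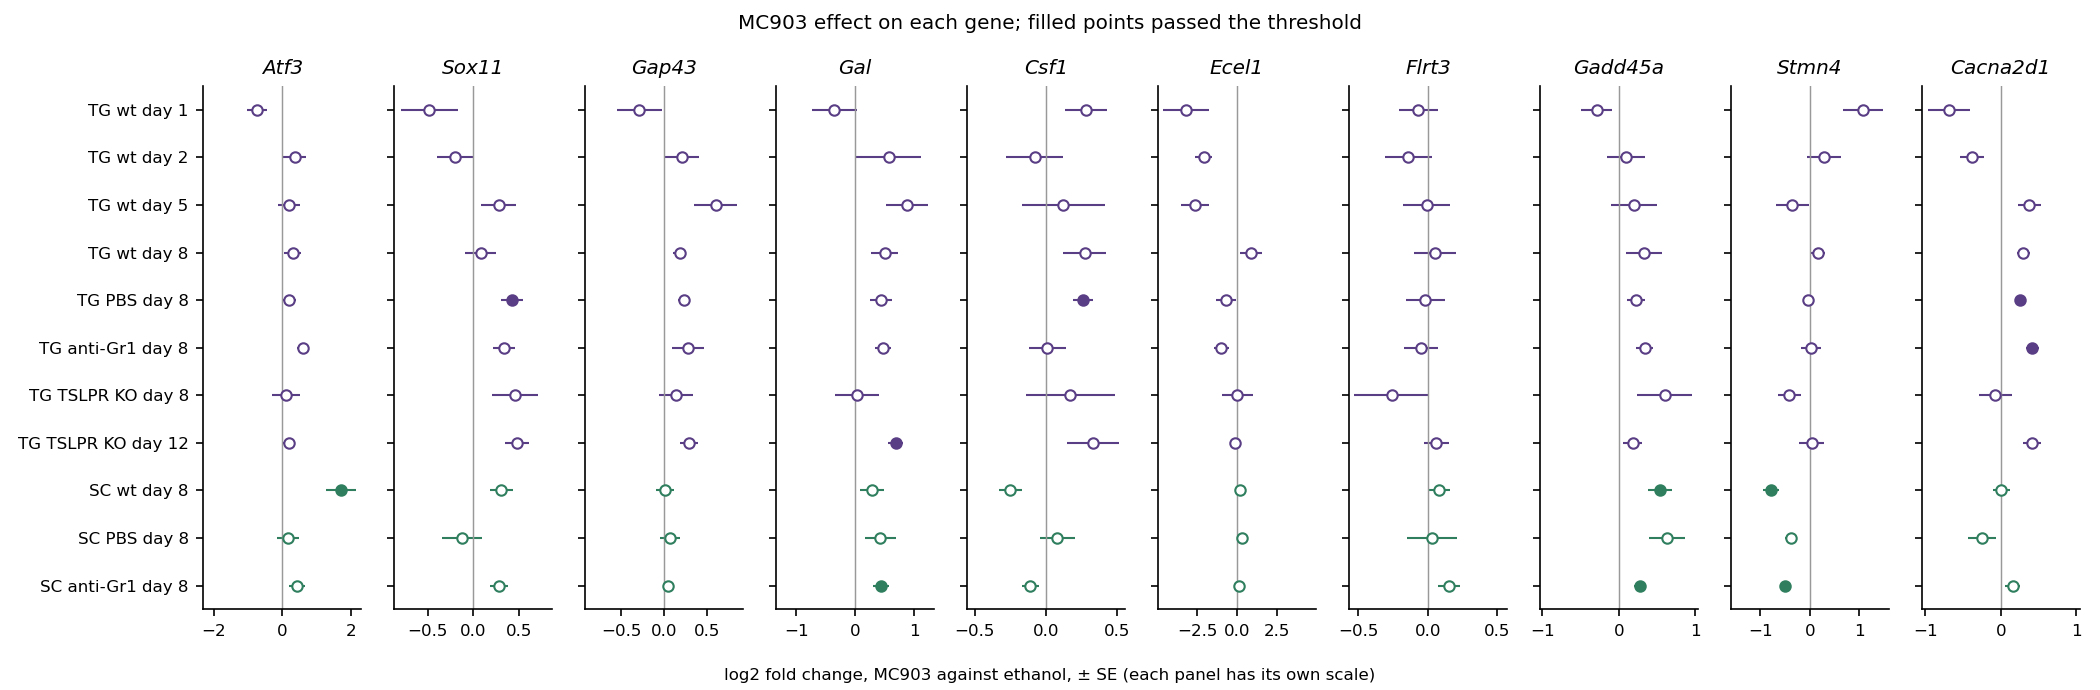
Log2 fold change of MC903 against ethanol with its SE (bars) for each gene in the 8 trigeminal ganglion (purple) and 3 spinal cord (green) comparisons, each panel with its own scale. Filled points passed the threshold, 5 of them in trigeminal ganglion and 6 in spinal cord.

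The wider injury response in TG was counted over lists fixed with the 10 genes. On days 1, 2 and 5, and in TSLPR KO of day 8, no gene of the 5 lists passed. With PBS, where 3.36% of all genes were called, 2 of 10 injury response transcription factors rose, Cebpd by 1.0 ± 0.17 (adjusted p = 0.0079) and Stat3 by 0.29 ± 0.06 (adjusted p = 0.024), and the list's median was 0.13 against 0.00 over all genes. Of the 14 growth cone and cytoskeleton genes, Dpysl3 (0.22) and Crmp1 (0.28) rose. Of the injury-induced peptides and surface receptors, 2 of 8 tested rose, the neurotrophin receptor Ngfr by 0.45 ± 0.07 (adjusted p = 0.003) and the peptide gene Adcyap1 by 0.52 ± 0.11 (adjusted p = 0.024). 

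The nociceptor genes that are known to fall after a nerve is cut were counted in the same way. With PBS, 3 of the 10 rose and 1 fell, the potassium channel gene Kcna2, which is named here after its value was seen. The CGRP gene Calca went from 409.5 ± 23.2 cpm (SD, n = 3) to 618 ± 69.99 (n = 4), a rise of 0.59 ± 0.08 (SE, adjusted p = 0.0015). The heat and capsaicin channel gene Trpv1 rose by 0.40 ± 0.06 (adjusted p = 0.0065) and the substance P gene Tac1 by 0.30 ± 0.07 (adjusted p = 0.042). Calca also rose in uninjected mice of day 8 (0.53 ± 0.08, adjusted p = 0.032), with anti-Gr1 (0.48 ± 0.11, adjusted p = 0.066) and in the day 12 libraries labelled TSLPR KO (0.74 ± 0.10, adjusted p = 0.01), where Trpv1 (0.49) and Tac1 (0.45) rose too. The shares of all genes called there were 0.16%, 1.88% and 0.304%. Leaving out each library in turn kept the call of Calca in 7 of 7 fits with PBS, 5 of 10 uninjected, 2 of 8 with anti-Gr1 and 8 of 8 at day 12, where Trpv1 held in 5 and Tac1 in 2. Without the library with 4 Crlf2 counts it was 0.51 ± 0.09 in uninjected mice (adjusted p = 0.027). 

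Among the partners, relatives and receptors of the 10 genes, Gadd45g, of the same family as Gadd45a, rose by 0.90 ± 0.16 in uninjected mice of day 8 (adjusted p = 0.056), by 1.25 ± 0.15 with PBS (adjusted p = 8.1e-04) and by 0.59 ± 0.12 at day 12 (adjusted p = 0.096). Gadd45a was 0.33 ± 0.24, 0.22 ± 0.12 and 0.18 ± 0.12 in the same comparisons and passed in none, and the difference between the 2 genes was not tested. Gadd45g was the only one of 15 tested partners of the 10 genes to pass in these comparisons. With anti-Gr1, 1 of 14 growth cone genes passed, Marcks, which fell by 0.51 on the log2 scale (-0.51 ± 0.11, adjusted p = 0.039), and no partner did. At day 12, Cebpd (0.71) and Adcyap1 (0.63) were the calls of their lists. Without single libraries the call of Gadd45g held in 2 of 10 fits uninjected, 7 of 7 with PBS and 1 of 8 at day 12, and it was 1.03 ± 0.14 (adjusted p = 0.0097) in uninjected mice without the library with 4 Crlf2 counts. At day 12 the call of Cebpd held in 1 and that of Adcyap1 in 7 of 8 fits, and Marcks with anti-Gr1 held in 6 of 8. With PBS those of Cebpd and Ngfr held in 7 of 7, Adcyap1 in 6, Stat3 and Dpysl3 in 5, Tac1 in 4 and Crmp1 in 1.

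In spinal cord of uninjected mice, 3 of the 10 genes passed, 2 up and 1 down, against 12.2% of 25585 genes. Stmn4 fell. It was 280, 198, 217, 205 and 200 cpm in ethanol and 124.9, 108, 122.2 and 158 in MC903, so every MC903 library lay below. The change was -0.79 ± 0.16 (SE, adjusted p = 0.0048) and leaving out any 1 of the 9 libraries kept the call, at -0.94 to -0.64. 

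Atf3 and Gadd45a rose in the same cords. Atf3 was 0.664 to 0.939 cpm in the 5 ethanol libraries and 2.10, 1.19, 1.31 and 5.83 in MC903, with no overlap but with the change carried unevenly by replicates 4 and 1. The fitted change was 1.70 ± 0.44 (adjusted p = 0.023) and was 0.88 ± 0.27 without MC903 replicate 4 (adjusted p = 0.067). Without ethanol replicate 2 it was 1.63 ± 0.49 (adjusted p = 0.057), and the other 7 fits that left out a library kept the call. Gadd45a was 3.17, 5.25, 4.63, 4.70 and 5.14 cpm in ethanol and 7.72, 7.37, 6.67 and 4.91 in MC903, and rose by 0.54 ± 0.16 (adjusted p = 0.039). Leaving out single libraries kept the call of Gadd45a in 3 of 9 fits. Csf1 was 34.5, 46.9, 43.3, 47.1 and 45.3 cpm against 36, 36.7, 38.0 and 34.9, at -0.25 ± 0.08 (adjusted p = 0.052). Altogether 2 of the 10 genes did not overlap, Atf3 and Stmn4, against 15.3% of all genes.

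Anti-Gr1-injected mice gave the same count of 3, against 11.3% of 27649 genes. Stmn4 was 138 to 163 cpm in ethanol (median 150, n = 6) and 84.04 to 120.7 in MC903 (median 111, n = 8), the single gene of the 10 whose arms did not overlap, against 4.28% of all genes. Its change was -0.50 ± 0.07 (adjusted p = 6.3e-05). Gadd45a rose by 0.28 ± 0.08 (adjusted p = 0.019), from 7.60 ± 0.499 cpm (SD, n = 6) to 9.26 ± 1.01 (n = 8). Gal rose by 0.44 ± 0.14 (adjusted p = 0.043), from 2.84 to 4.77 cpm in ethanol to 3.25 to 5.70 in MC903, with overlap. Atf3 was 0.883 to 1.34 cpm in ethanol and 0.734 to 3.06 in MC903, at 0.43 ± 0.24 (adjusted p = 0.27). Fits that leave out single libraries were not run for this comparison, so how far its calls rest on single libraries is not known.

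With PBS, at 2 libraries an arm, none of the 10 genes passed and 0% of 24573 genes did (1571 at an unadjusted p under 0.05, 174 by DESeq2). Stmn4 was 115.5 and 128.6 cpm in ethanol and 98.0 and 93.2 in MC903, a change of -0.38 ± 0.12 (adjusted p = 0.69). Here 7 of the 10 genes did not overlap, against 36.5% of all genes. The MC903 responses with anti-Gr1 and without injection were compared for each gene, and none of the 10 passed, with 0.532% of 28747 genes called. The difference was -1.30 ± 0.50 for Atf3 (adjusted p = 0.25) and 0.25 ± 0.16 for Stmn4 (adjusted p = 0.53). Without uninjected MC903 replicate 4, the library highest in Atf3, the difference for Atf3 was -0.48 ± 0.37 (adjusted p = 0.67). Against PBS none passed and 0% of 28415 genes did (1485 at an unadjusted p under 0.05, 1 by DESeq2). In the fits that left out a library, the difference against PBS was 0.03 to 0.38 for Atf3 and -0.19 to -0.06 for Stmn4. These signs were opposite to those of the differences against uninjected mice.

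**Figure D5:**
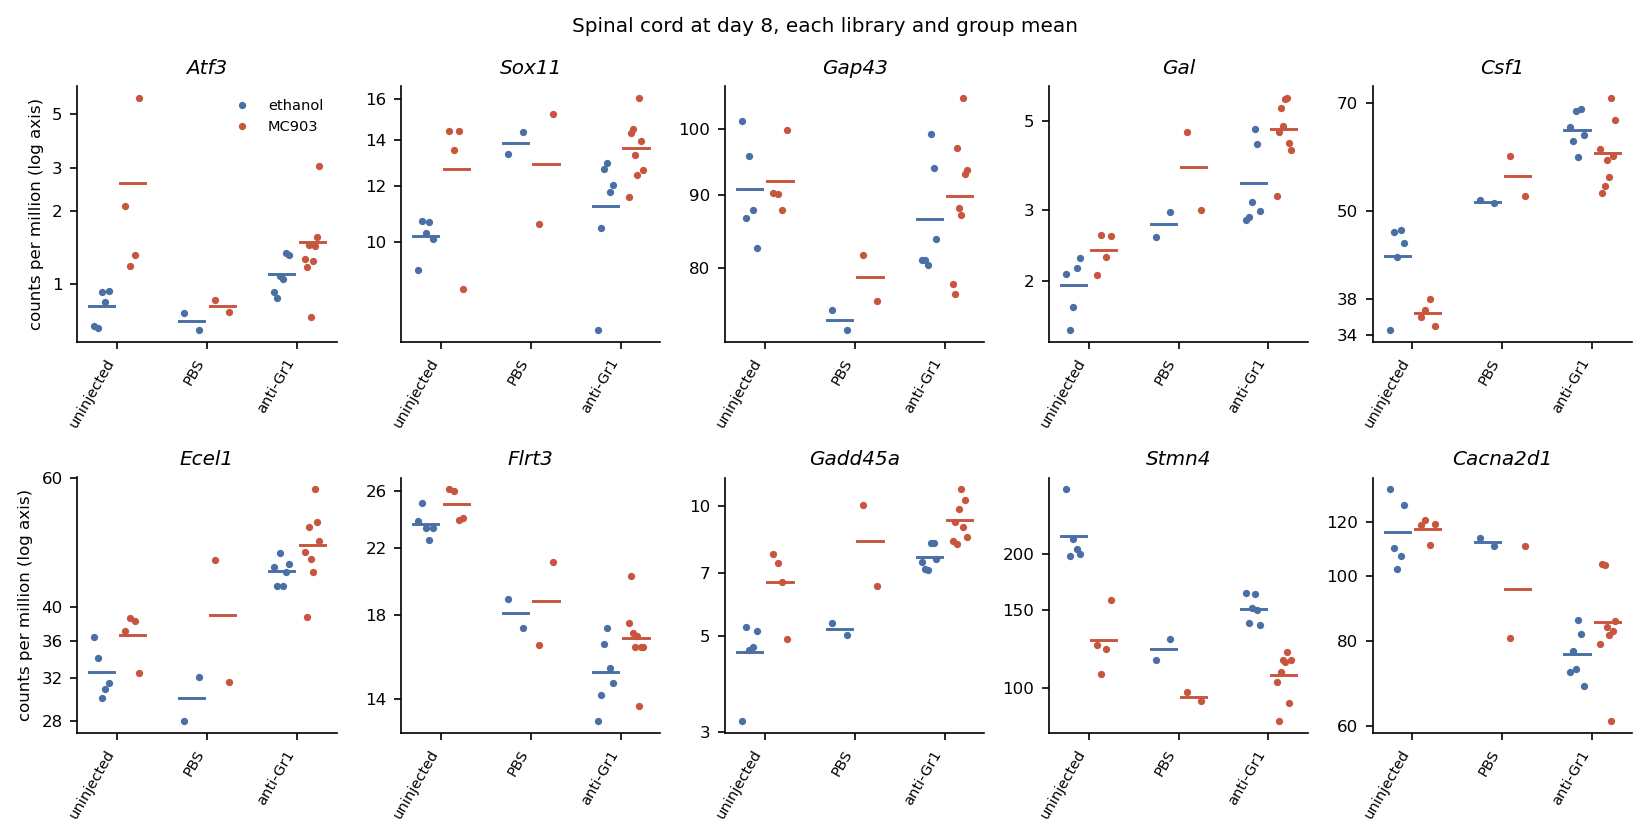
Level (cpm) of each gene in every spinal cord library of day 8 (points) with the group mean (bars), ethanol in blue and MC903 in red, on log axes that differ between panels. Stmn4 in MC903 lies below ethanol in the uninjected, PBS and anti-Gr1 sets, and the uninjected MC903 library at 5.83 cpm stands apart for Atf3.

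Other genes of growth and microtubules fell beside Stmn4. In uninjected mice 4 of 14 growth cone and cytoskeleton genes fell and 1 rose (Crmp1, named after its value was seen), and with anti-Gr1 6 fell and 2 rose. Of all genes, 12.2% were called in uninjected mice (1827 down and 1291 up of 25585) and 11.3% with anti-Gr1 (1876 down and 1256 up of 27649), and these shares are the background of every list counted in cord. Tubb2b fell by 0.75 on the log2 scale (-0.75 ± 0.09, adjusted p = 7.9e-05) uninjected and by 0.49 (-0.49 ± 0.07, adjusted p = 1.1e-04) with anti-Gr1. Stmn1, another stathmin, fell by 0.58 (-0.58 ± 0.08) and by 0.31 (-0.31 ± 0.05). Marcks fell by 0.61 (-0.61 ± 0.09) and by 0.27 (-0.27 ± 0.06). The list's median was -0.18 uninjected and -0.08 with anti-Gr1, against 0.01 over all genes in each.

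Among injury response transcription factors, 3 of 10 rose in uninjected cord, against 12.2% of all genes called, Cebpd by 1.79 ± 0.19 (adjusted p = 4.5e-05), Smad1 by 0.54 ± 0.10 (adjusted p = 0.0032) and Klf6 by 0.45 ± 0.11 (adjusted p = 0.019). With anti-Gr1 Smad1 rose by 0.27 ± 0.06 and Jun fell by 0.25 (-0.25 ± 0.07). The response of Cebpd was smaller with anti-Gr1 than in uninjected cord, by -1.41 ± 0.31 (adjusted p = 0.031). It was the single gene of the 5 lists to differ between these sets, and the call held in 13 of the 23 fits that lacked a library. Antibody, injection and set of libraries cannot be told apart in that contrast. Between anti-Gr1 and PBS cord no gene of the 5 lists passed, where 0% of 28415 genes were called. Of the peptide and receptor list, the small heat shock gene Hspb1 rose by 0.74 ± 0.12 in uninjected mice, Crh by 1.5 ± 0.34 and Cckbr fell by 0.58 (-0.58 ± 0.14). With anti-Gr1, Crh rose by 2.19 ± 0.38, from 0.449 to 2.07 cpm, and Adcyap1 by 0.40 ± 0.11. Sst, with -0.34 ± 0.09, was the sole call among 9 nociceptor genes tested in uninjected cord, and none passed with anti-Gr1. Leaving out single libraries kept the calls of uninjected cord that are given with values in all 9 fits, except Cckbr (6), Sst (4) and Galr2 (1).

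Of 15 partners of the 10 genes tested in cord, 3 fell (Unc5b, Csf1r and Cacna2d4) and 1 rose (Galr2) in uninjected mice, and the same 3 fell and 0 rose with anti-Gr1, against 12.2% and 11.3% of all genes called. Unc5b, a netrin receptor that FLRT proteins bind, fell by 1.58 on the log2 scale (-1.58 ± 0.15, adjusted p = 1.7e-05), from 112.1 ± 9.63 cpm (SD, n = 5) to 37.8 ± 8.91 (n = 4), and by 0.87 (-0.87 ± 0.11) with anti-Gr1. Flrt3 itself was 23.6 ± 0.959 and 25.04 ± 1.23 cpm, at 0.08 ± 0.08 (adjusted p = 0.62). Csf1r, the receptor of CSF1 and a gene of microglia, fell by 0.66 (-0.66 ± 0.08, adjusted p = 1.6e-04) uninjected and by 0.28 (-0.28 ± 0.09, adjusted p = 0.044) with anti-Gr1. Galr2, a galanin receptor, rose by 0.88 ± 0.25 (adjusted p = 0.033) in uninjected mice, from 0.628 to 1.16 cpm. 

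Marker sums moved in these cords as well. In uninjected mice, the 7 macrophage and microglia markers summed to 111.5 to 121.7 cpm in ethanol and 41.5 to 73.1 in MC903, endothelial markers to 57.8 to 94.4 and 44.2 to 54.1, fibroblast markers to 206 to 470 and 119.2 to 157, and the satellite glia list, which spinal astrocytes share in part, to 2811 to 2946 and 3509 to 3736. With anti-Gr1, macrophage and microglia markers were 120 to 152 and 72.8 to 114.2 cpm. Neuronal lists overlapped between the arms in both sets. The part of these shifts in the changes of Stmn4, Atf3 and Csf1r was not tested.

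Within the TG groups, the 10 genes did not move as a block from library to library. After the mean of each group was subtracted from log2(cpm + 0.5), Sox11 and Cacna2d1 had r = 0.70 and Csf1 and Stmn4 r = 0.74 over the 56 libraries, the highest of all pairs. Stmn4 followed the astrocyte marker sum with r = 0.79, the satellite glia sum with r = 0.74 and the oligodendrocyte sum with r = 0.67. For the macrophage and microglia sum it had r = 0.63. Csf1 had r = 0.70, 0.53, 0.61 and 0.58 with these sums, in the same order. The genes most like Stmn4 were Olig2 (0.88), Gstm7 (0.87) and Nkx6-2 (0.87), of which Olig2 and Nkx6-2 are transcription factors of oligodendrocytes. The genes most like Ecel1 were Zcchc12 (0.88), Irs4 (0.88) and Hap1 (0.86).

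The rest had neighbours of other kinds. Those of Cacna2d1 were Zdhhc15 (0.88), Usp9x (0.87) and Cul2 (0.87), and those of Csf1 were Tmem63a (0.83), Slc6a9 (0.82) and Tspan9 (0.81). Sox11 was most like Pcdh17 (0.76), Cacna2d1 (0.70) and Nalcn (0.70), Gal like Pebp1 (0.75), Cartpt (0.70) and Eif4a-ps4 (0.69), and Gap43 like Rnd3 (0.71), Cdh4 (0.70) and Capzb (0.69). Atf3, Flrt3 and Gadd45a had weaker neighbours, led by Polr3c (0.57), Nanos1 (0.57) and Gm8797 (0.67). These values describe libraries that share depth and dissection, and carry no test.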

How the data were processed

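RNA sequencing counts were analysed for 89 of the 162 libraries: trigeminal ganglion (wild-type day 12 left out), spinal cord, and ethanol-treated skin for levels. The deposited values are raw counts per Ensembl gene. Per the labels' processing notes the authors used Bowtie2, TopHat, TopHat2, HTSeq and mm10, and the strand setting is not given in the sources used here. Symbols and exon lengths came from the GENCODE M21 annotation, and 45143 of 46078 genes had a symbol. The 5 tally lines were left out.

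Groups followed the labels. Each comparison was fitted with edgeR 4.0.16 in R 4.3.3 (quasi-likelihood F test, TMM, genes with at least 10 counts in total, Benjamini-Hochberg adjustment over all genes tested), at an adjusted p of 0.1 in TG, as the study's methods set, and 0.05 in SC and between tissues. Levels are cpm without TMM. SEs came from the same fits, and the scripts were tested on simulated data. All 10 genes passed the filter on low counts in every comparison. The members, lists and tests were chosen with earlier results of these data known. Named genes were the 10 members, up to 3 called genes of smallest p per list and comparison, and the 3 genes most correlated with each member. Alternatives were RLE scaling, DESeq2 1.42.0, 2 other filters, the replicate block, other cohort and day fits, and leaving out libraries. Replicate numbers were taken as pairs where every same-numbered pair correlated above 0.1, which held for TG of day 5 (0.14 to 0.36) and of TSLPR KO day 12 (0.21 to 0.61). Counting error only is covered by the depth given.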

Additional observations from a re-analysis of the deposited data

Results flagged for a closer look

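Single libraries stood apart from the rest of their group by Dixon's test at 11 places among 110 sets, where chance flags about 1 in 20. Each set was 1 gene in 1 group of 4 to 8 libraries. Smaller groups, among them uninjected wild-type TG of days 2, 5 and 8, were not covered. In trigeminal ganglion of day 1, ethanol replicate 1, the library rich in pituitary markers, held 34.8 cpm of Ecel1 (0.287 to 0.722 in the others) and 8.19 cpm of Gal (2.44 to 3.21). MC903 replicate 4 of that day held 6.88 cpm of Gadd45a (4.85 to 5.13). In anti-Gr1 mice, Gap43 was lowest in replicate 2 of both arms, at 204 cpm in MC903 (296 to 299) and 136 cpm in ethanol (248 to 264). Sox11 was 15.9 cpm in MC903 replicate 3 (12.4 to 12.9), and Stmn4 35.5 cpm in MC903 replicate 1 (22.7 to 24.8), the library of that arm with the most oligodendrocyte markers at 955 cpm. Sox11 was 14.7 cpm in ethanol replicate 2 labelled TSLPR KO, day 12 (12.9 to 13.2).

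In spinal cord, Atf3 was 3.06 cpm in anti-Gr1 MC903 replicate 8 (0.734 to 1.56), Sox11 was 8.55 cpm in uninjected MC903 replicate 4 (13.5 to 14.4), the library that was also highest in Atf3, and Stmn4 was 280 cpm in uninjected ethanol replicate 1 (198 to 217).

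The MC903 effect on Cacna2d1 had opposite signs on different days in wild-type TG. It was higher by 1.05 on the log2 scale at day 5 than at day 1 and by 0.73 than at day 2, with every MC903 library below every ethanol library on days 1 and 2 and above on day 5. The tests of these differences gave adjusted p-values of 0.70 and 1 in edgeR. In PBS-injected mice, every MC903 library was higher in Cacna2d1 than ethanol in TG and lower in SC, a difference in effect of -0.51 (SC minus TG) that was not tested. The SC value rests on 2 libraries an arm, where 36.5% of all genes did not overlap, and it moved to -0.01 without MC903 replicate 1 and to -0.54 without MC903 replicate 2.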

How the results depend on the processing

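Counts of the 10 genes past the threshold changed by more than 1.5 times as follows. Without a filter, 1 gene passed on TG day 2 (Ecel1), 1 in uninjected TG of day 8 (Cacna2d1) and 2 with anti-Gr1. DESeq2 called 3 with anti-Gr1 and 3 at TSLPR KO day 12. The replicate block called 5 in TG with PBS, 3 at TSLPR KO day 12 and 1 in uninjected SC, and changed no other count of the 10 genes by that much. Over all genes it moved calls from 796 to 3479 (PBS), 0 to 480 (TSLPR KO day 8), 0 to 16 (day 2), 3118 to 1747 (SC) and 3132 to 1992 (SC anti-Gr1). Outside TG day 5 and TSLPR KO day 12, same-numbered libraries did not all correlate above 0.1. In SC with PBS, same-numbered libraries correlated at -0.39, and the block called 224 genes as numbered and 955 with crossed pairs, 1 of them Gadd45a. Without libraries rich in oligodendrocyte or pituitary markers, a choice made after seeing the data, 0 passed at TSLPR KO day 12, and on day 1 Gap43 turned to 0.22 and Ecel1 to 0.73. Such a fit was not run for TG with anti-Gr1, where an MC903 library held 955 cpm of oligodendrocyte markers. Leaving out each library in turn gave Ecel1 values of -4.15 (without MC903 replicate 2) to 0.90 (without ethanol replicate 1) on day 1. Leaving out each library in turn gave 0 to 5 genes for TG day 2, 0 to 5 with PBS, 0 to 2 with anti-Gr1, 0 to 1 at TSLPR KO day 12, 2 to 5 in uninjected SC, 0 to 6 in SC with PBS (6 without MC903 replicate 2), 6 to 9 between tissues and 0 to 1 for day 5 against day 2. It gave 0 to 0 in the other comparisons where it was run, and it was not run for MC903 against ethanol in SC with anti-Gr1. Uninjected TG of day 8 kept 0 genes without the library with 4 Crlf2 counts, with 71 calls over all genes against 41. Over all genes, DESeq2 and no filter called 211 and 493 for day 8, 857 and 627 with anti-Gr1, and 266 and 100 at TSLPR KO day 12. Lone or paired libraries limit TG day 2, TSLPR KO day 8 and SC with PBS.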
